A study of Homo sapiens with 6 samples.

Results

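The genes described here are RPL22, its paralog RPL22L1, and further human ribosomal protein genes that have a close paralog. They were taken by symbol from the deposited gene count table: RPL22, RPL22L1, RPL39, RPL39L, RPL26, RPL26L1, RPL7L1, RPL36AL, RPS27 and RPS27L, which are 10 of its 30270 genes. All 10 were found, and all 10 had enough reads to be fitted, as had 23952 genes in all. The list was drawn up with their levels in these libraries known, so the differences between the groups are described for these genes without a test. Each paralog was set against its parent gene. The parents of RPL7L1 and RPL36AL, namely RPL7 and RPL36A, are not on the list and are given for that purpose only.

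The cells were HEK 293T, an established line grown from human embryonic kidney that carries the SV40 large T antigen. The study compared wild-type cells (WT) with a knockout line that lacks TENT3A and TENT3B, better known as TUT4 and TUT7, which are enzymes that extend RNA 3′ ends with uridines. Total RNA was depleted of ribosomal RNA and sequenced as paired-end reads in 3 WT libraries and 3 libraries labelled ΔTUT4/7 (hereafter ΔTUT4/7). No treatment or time course was applied in either group. The ΔTUT4/7 cells are a single line from earlier work, so the 3 libraries of a group are biological replicates of 1 line, and a feature of that line cannot be told apart from the loss of the enzymes.

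Library totals ran from 18757228 to 33148937 estimated counts. The TUT7 count was lower in the libraries labelled ΔTUT4/7, at 26.3 ± 1.04 CPM (counts scaled to library depth, mean ± SD, n = 3) against 62.6 ± 2.17 in WT. The TUT4 count went against the label, at 906 ± 21.4 CPM against 211 ± 5.08, although a count over the whole gene does not show which exons the reads cover. The markers looked for in this line, VIM, KRT8, KRT18, PAX2, LHX1 and CDH2, were all detected. PAX2 and LHX1 were low, at 2.15 and 3.91 CPM in WT and 1.45 and 1.96 CPM in ΔTUT4/7. At a false discovery rate of 0.05, 3 of the 6 were higher and 3 lower in ΔTUT4/7, where 57.7% of all tested genes passed. Of the markers of blood, muscle, vessel and liver cells looked for, PTPRC, CD3E, HBB and MYH7 have no entry in the table used here, and PECAM1 and ALB had 15 and 18 counts over all 6 libraries.

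Cytosolic ribosomes hold a large and a small subunit, each built from ribosomal RNA and a fixed set of proteins, most of which are made from a single active gene. A few of these genes have an expressed paralog whose protein can take the parent's place in the ribosome or act outside it. RPL22 is a large-subunit protein that also binds structured RNAs, and in mouse cells it is known to bind the mRNA of its paralog and lower its abundance. RPL39L is best known from testis, RPS27L encodes a protein that binds MDM2, and RPL26 is the ribosomal protein to which UFM1, a ubiquitin-like modifier, is attached. Many ribosomal protein mRNAs start with a run of pyrimidines, the 5′ terminal oligopyrimidine (TOP) motif, through which mTOR signalling controls their translation.

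How far a short read can tell a paralog from its parent depends on how alike the sequences are, so the coding sequences of the pairs were aligned, and those of the most alike pair are shown. RPL22 (chr1:6185020-6209389, minus strand, hg38) and RPL22L1 (chr3:170864875-170870208, minus strand) both have 4 exons. Their coding sequences, read from GENCODE release 44, differed at 116 of 369 aligned bases, an identity of 68.6%, and the longest identical run was 17 bases.

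RPL39 (chrX:119786504-119791630, minus strand) and RPL39L (chr3:187120948-187180908, minus strand) both have 3 exons. Their coding parts are closer, with 94.9% identity, since they differed at 8 of 156 bases and shared an identical run of 44 bases. Capitals mark the differing bases.
RPL39: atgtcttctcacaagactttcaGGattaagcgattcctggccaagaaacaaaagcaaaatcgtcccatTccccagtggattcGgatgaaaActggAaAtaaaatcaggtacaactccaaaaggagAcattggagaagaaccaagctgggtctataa
RPL39L: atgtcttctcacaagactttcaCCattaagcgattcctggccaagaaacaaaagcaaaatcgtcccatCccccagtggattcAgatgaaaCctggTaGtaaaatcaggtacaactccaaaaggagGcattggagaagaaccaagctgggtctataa

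The coding identity of the other pairs lay between these or below them. It was 84.2% for RPL26 (chr17:8377516-8383213, minus strand) with RPL26L1 (chr5:172958729-172969771, plus strand), and 90.0% for RPL36A (chrX:101390824-101396155, plus strand) with RPL36AL (chr14:49618530-49620626, minus strand). It was 78.0% for RPS27 (chr1:153990762-153992155, plus strand) with RPS27L (chr15:63125872-63158021, minus strand). RPL7L1 (chr6:42879616-42889925, plus strand) was the most distant from its parent, with 56.4% identity to RPL7.

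The longest identical coding run of any pair was 63 bases, in RPL36A and RPL36AL. Ribosomal protein genes also have many processed pseudogenes that a read can match. To see how much sequence is shared at the length of a read, each gene's reference transcript was cut into all its 76-base windows, and the share of windows that also occur in the transcripts of another annotated gene was taken. The share was 0% for RPL22L1 and RPL39L and 0.0829% for RPS27L, so almost no window of these 3 paralogs occurs in another gene's transcripts. It was 3.16% for RPL36AL, 10.0% for RPL7L1, 15.2% for RPL22, 25.7% for RPL39 and 32.9% for RPL26L1. It was highest for RPL26 at 62.7% and RPS27 at 65.0%, and it reached 40.7% for RPL36A and 55.6% for RPL7, which makes the levels of these genes uncertain. The deposited counts share such reads out by an expectation-maximisation model. Overlap with a gene on the other strand, as of LACTB with RPS27L, is not covered by these shares.

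**Figure D1:**
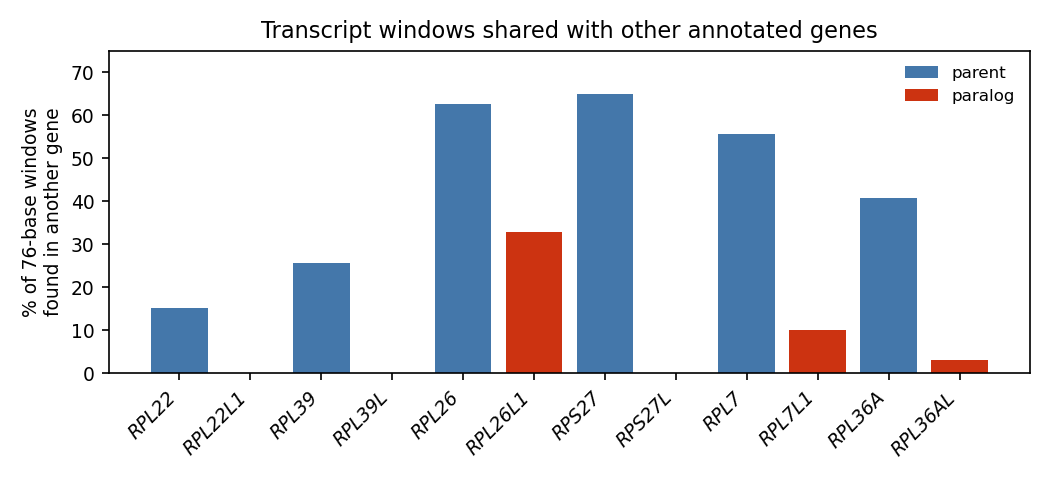
Share of the 76-base windows of each gene's reference transcript that also occur in another annotated gene (vertical axis, percent), with parents in blue and paralogs in red. RPL22L1 and RPL39L stand at 0%, while RPS27 and RPL26 reach 65.0% and 62.7%.

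The start sites show which of these genes carry a TOP-like run. No start window was available for RPL39L or the parent RPL7. The 30 bases around the RefSeq start (GRCh38.p14), with the first transcribed base at position 16 of each line, are printed for 6 genes with the longest pyrimidine run in capitals.
RPL22 (chr1:6199581-6199610, minus strand): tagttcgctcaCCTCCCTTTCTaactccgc
RPL22L1 (chr3:170870181-170870210, minus strand): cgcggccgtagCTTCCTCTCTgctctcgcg
RPL39 (chrX:119791616-119791645, minus strand): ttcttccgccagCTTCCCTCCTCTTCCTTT
RPL26 (chr17:8383179-8383208, minus strand): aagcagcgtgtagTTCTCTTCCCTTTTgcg
RPS27 (chr1:153990747-153990776, plus strand): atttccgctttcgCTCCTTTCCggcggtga
RPS27L (chr15:63157463-63157492, minus strand): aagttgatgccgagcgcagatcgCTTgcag

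RPL22 and RPL22L1 both had a run of 8 or more pyrimidines across the annotated start, of 11 and 10 bases. So had RPL39 (18 bases), RPL26 (14), RPS27 (9), RPL36AL (15) and RPL36A (13). RPS27L, whose longest run was 3 bases, RPL26L1 and RPL7L1 had no such run in this window. Such a run was found in 4.596% of the 35116 windows in the table, and in 42 of 74 windows of other cytosolic ribosomal protein genes (56.76%). A run of C and T letters on the transcribed strand is a description of the sequence and not a measurement of TOP regulation.

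RPL22L1 stood apart from the rest of the list. It was at 23.7, 22.5 and 22.5 CPM in the WT libraries and at 251, 295 and 249 CPM in the ΔTUT4/7 libraries. Every ΔTUT4/7 library was far above every WT library. The mean was 22.9 ± 0.716 CPM in WT and 265 ± 26.2 in ΔTUT4/7 (SD, n = 3), an 11.6-fold higher level and a log2 fold change of 3.53 ± 0.07 (standard error). Of the 13496 genes whose mean count reached 100, 34 had a higher log2 fold change than RPL22L1.

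Its parent RPL22 differed in the opposite direction and by less. RPL22 was at 221, 227 and 255 CPM in WT and at 154, 162 and 153 CPM in ΔTUT4/7. The groups did not overlap, and the means of 235 ± 18.3 and 156 ± 5.12 CPM gave a log2 fold change of -0.59 ± 0.05. RPL22 overlaps RNF207 on the other strand and the read strand setting of the counting is not given in the sources used here. RNF207 was far lower, with 963 counts over the 3 WT libraries and 1325 over the 3 ΔTUT4/7 libraries.

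Together these values turned the balance of the pair around. The log2 ratio of RPL22L1 to RPL22 was -3.22, -3.33 and -3.51 in the WT libraries and 0.70, 0.86 and 0.70 in the ΔTUT4/7 libraries. The paralog was thus the minor transcript in every WT library and the major one in every ΔTUT4/7 library. The mean log2 ratio differed by 4.11 ± 0.10 (standard error), a 17.2-fold difference in the ratio that does not depend on how libraries are scaled to each other. RPL22L1 made up 8.93% ± 0.801 of the summed counts of the pair in WT and 62.8% ± 1.5 in ΔTUT4/7. Per kilobase of transcript the shares were 9.60% ± 0.855 and 64.6% ± 1.46.

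The sum of the pair did not stay level. RPL22 and RPL22L1 added up to 126 ± 8.63 CPM per kilobase in WT and 215 ± 16.2 in ΔTUT4/7, a 1.71-fold higher sum. The lower RPL22 level was therefore smaller in size than the higher RPL22L1 level.

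RPL22P1, a processed pseudogene of RPL22, shares 10.98% of the windows of RPL22 and lies 1.38 Mb from RPL22L1 on chromosome 3. It was at 142, 119 and 183 CPM in WT and 76.2, 98.6 and 78.7 CPM in ΔTUT4/7. Like RPL22 it was lower in each ΔTUT4/7 library. Summed with RPL22 it went from 382 ± 49.3 to 241 ± 17.3 CPM, a log2 ratio of -0.67, and the groups did not overlap.

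**Figure D2:**
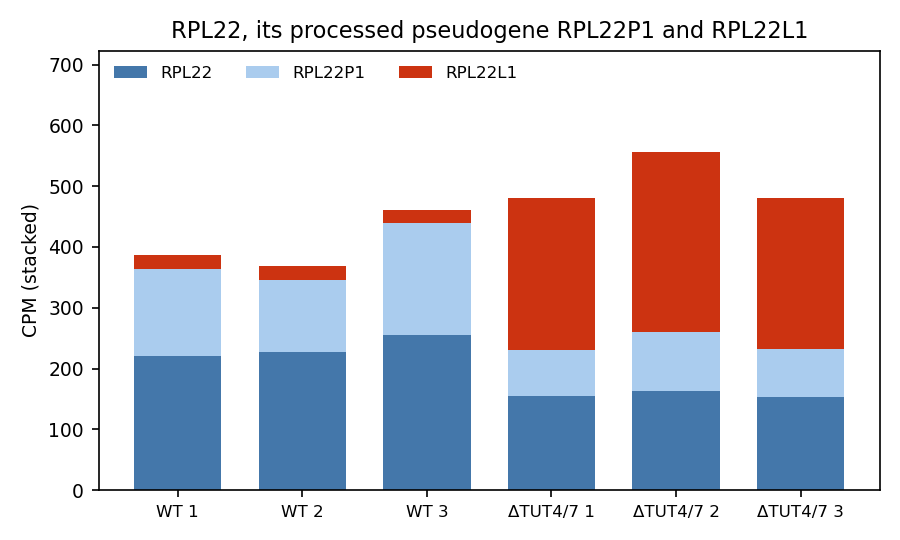
CPM of RPL22 (dark blue), its processed pseudogene RPL22P1 (light blue) and RPL22L1 (red), stacked for each of the 6 libraries. RPL22L1 is a thin band of 22.5 to 23.7 CPM in WT and the largest band, 249 to 295 CPM, in every library labelled ΔTUT4/7.

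The genes around RPL22L1 did not share its difference. Of 29 genes within 5 Mb with a mean count of at least 50, the median log2 fold change was -0.01 and the highest was 1.41. The 109 neighbours of RPL22 had a median of -0.15, and RPL22 stayed lower, at -0.43, once that median was subtracted. A search for the nearest patterns covered 13486 genes with a mean count of at least 100, with the other members left out. The 5 genes whose centred log2 CPM lay nearest to that of RPL22L1 across the 6 libraries were GALNT13, NAP1L2, SYT14, ZNF329 and INA. Their Euclidean distances ran from 0.182 to 0.375. None is a ribosomal protein gene, and all were at under 5 CPM in WT.

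RPL39 and RPL39L encode one of the smallest proteins of the large subunit, which lines the exit tunnel. RPL39 was at 323, 346 and 396 CPM in WT and at 478, 563 and 509 CPM in ΔTUT4/7. It was higher in every ΔTUT4/7 library, with a log2 fold change of 0.54 ± 0.09. Its 41 neighbours within 5 Mb on the X chromosome (mean count at least 50) had a median log2 fold change of 0.45. That leaves 0.09 for RPL39 after subtraction. Whether the difference belongs to the gene or to its region was not tested.

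RPL39L was the lowest of the paralogs. It was at 4.53, 5.31 and 6.39 CPM in WT and at 6.21, 6.44 and 7.56 CPM in ΔTUT4/7, from 89 to 199 reads a library. The groups overlapped, and the log2 fold change of 0.30 ± 0.15 was within the spread of the libraries. RPL39L made up 1.49% ± 0.104 of the counts of the pair in WT and 1.29% ± 0.167 in ΔTUT4/7, with overlapping groups. The log2 ratio to RPL39 differed by -0.22 ± 0.12.

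RPL26, which sits near the exit tunnel, was the most abundant gene of the list. It was at 765, 794 and 687 CPM in WT and at 856, 965 and 852 CPM in ΔTUT4/7. The groups did not overlap, and the log2 fold change was 0.25 ± 0.06. The log2 difference was 0.09 once the median of 135 neighbours was subtracted. RPL26P19, a pseudogene with 31.8% of its windows, held 184 ± 29.9 and 190 ± 24.2 CPM, with overlapping groups.

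RPL26L1, nearly the same protein from an intron-bearing gene on another chromosome, was at 15.3, 15.2 and 18.6 CPM in WT and at 24.2, 27.0 and 20.8 CPM in ΔTUT4/7. Its groups did not overlap either, and the log2 fold change was 0.55 ± 0.10, or 0.35 once the median of 63 neighbours was subtracted. The ratio to RPL26 overlapped between the groups, at a log2 difference of 0.30 ± 0.17. RPL26L1 accounted for 2.16% ± 0.415 of the counts of the pair in WT and 2.62% ± 0.209 in ΔTUT4/7.

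RPL7L1 is a relative of RPL7 whose yeast counterpart acts in assembly of the large subunit. It was at 348, 366 and 377 CPM in WT and at 440, 461 and 465 CPM in ΔTUT4/7. These libraries were among the tightest of the list, and the log2 fold change was 0.32 ± 0.04 with no overlap. RPL7 was listed at only 13.9 ± 1.01 CPM in WT and 18.2 ± 0.408 in ΔTUT4/7. RDH10 overlaps RPL7 on the other strand and had more counts than it, with a log2 fold change of 1.34, and without the strand setting their reads cannot be told apart where they overlap. The processed pseudogene RPL7P9, which shares 47.8% of the windows of RPL7, held 598 ± 39.1 and 631 ± 40.4 CPM. RPL7 with its 4 window-sharing copies went from 808 ± 41.8 to 868 ± 52.8 CPM, with overlapping groups. The log2 ratio of RPL7L1 to RPL7 differed by -0.06 ± 0.03 as deposited and by 0.22 with those copies added, so its direction rests on how the reads are shared out.

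RPL36AL has 2 exons against 5 in its parent RPL36A, a large-subunit protein at the tRNA exit site. It was at 38.9, 35.1 and 44.8 CPM in WT and at 51.9, 52.7 and 44.9 CPM in ΔTUT4/7. The groups were separated by a narrow margin, since the highest WT library and the lowest ΔTUT4/7 library lay at 44.8 and 44.9 CPM. The log2 fold change was 0.33 ± 0.09. RPL36A overlapped between the groups, at 70.5 ± 9.92 and 75.7 ± 7.92 CPM, as did the log2 ratio of the pair, which differed by 0.23 ± 0.15. RPL36A lies across from GLA on the other strand, and the strand setting of the counting is not given in the sources used here.

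RPS27 and RPS27L are the small-subunit pair. RPS27, a zinc-finger protein of the small subunit, was listed at 9.06, 10.96 and 13.8 CPM in WT and at 10.3, 9.95 and 8.12 CPM in ΔTUT4/7. The groups overlapped, with a log2 fold change of -0.26 ± 0.14. Of the RPS27 windows, 65.0% are shared with 11 other annotated genes, none of which has an entry in the count table used here. RPL26, with 62.7% of its windows shared, was the most abundant gene of the list. What part the sharing has in the low level of RPS27 was not tested.

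RPS27L was the one paralog at a clearly lower level in ΔTUT4/7. It was at 56.8, 53.2 and 58.8 CPM in WT and at 26.1, 28.2 and 25.6 CPM in ΔTUT4/7. All 3 ΔTUT4/7 libraries were far below the lowest WT library, with means of 56.3 ± 2.84 and 26.6 ± 1.37 CPM and a log2 fold change of -1.08 ± 0.06. LACTB, which overlaps RPS27L on the other strand, differed in the opposite direction with a log2 fold change of 0.63. Without the strand setting of the counting, their reads cannot be told apart where they overlap. The log2 ratio of RPS27L to RPS27 was 2.64, 2.28 and 2.09 in WT and 1.34, 1.5 and 1.66 in ΔTUT4/7, a difference of -0.84 ± 0.19 without overlap.

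**Figure D3:**
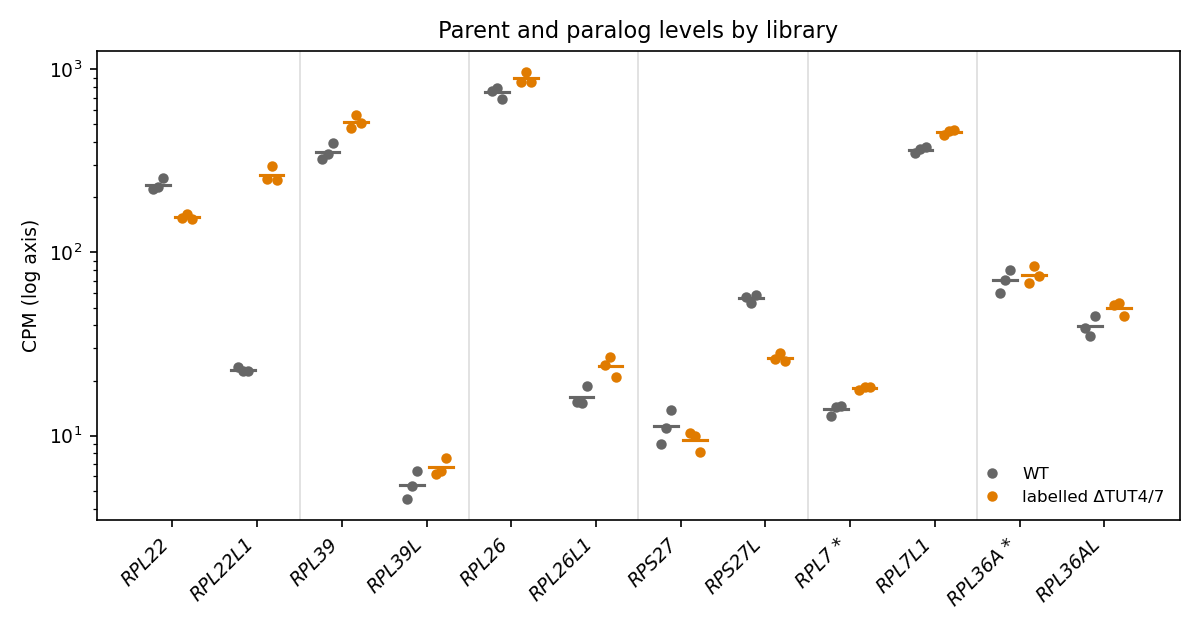
CPM (log axis) of each parent and paralog in the 3 WT libraries (grey) and the 3 libraries labelled ΔTUT4/7 (orange), with points for libraries and bars for group means. Asterisks mark the parents RPL7 and RPL36A, which are not on the list. RPL22L1 has the widest gap upward, from 22.9 to 265 CPM, and RPS27L the widest downward, from 56.3 to 26.6 CPM.

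**Figure D4:**
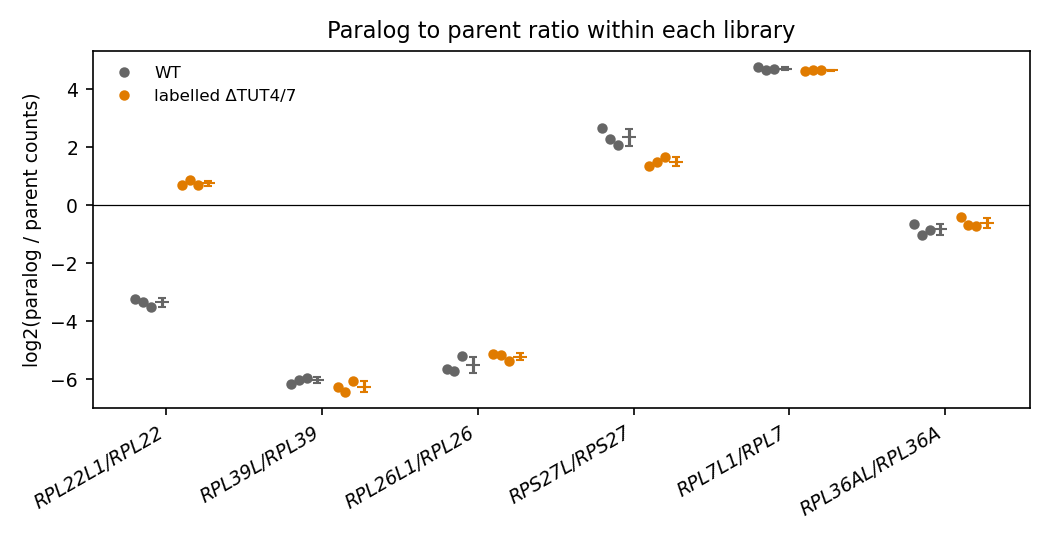
Log2 ratio of paralog to parent counts in each library (points) with the mean and SD of the group (bar), WT in grey and ΔTUT4/7 in orange. The ratio crosses the line of equal counts only for RPL22L1 to RPL22, from a mean of -3.35 to 0.75.

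Over the whole list, 8 of 10 genes passed the false discovery rate (FDR) of 0.05 in the edgeR fit across all genes, 6 higher and 2 lower in ΔTUT4/7. In that fit 57.7% of all tested genes passed, 28.6% higher and 29.0% lower, and nothing is read from the count of members since they were chosen on this contrast. Groups did not overlap for 8 of the 10, against 62.7% of all tested genes. The median log2 fold change of the list was 0.31, and that of all tested genes was -0.02.

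Compared per kilobase of reference transcript, the largest change in the order of the levels was at RPL22L1. In WT the order ran RPL26 (1418 CPM per kilobase), RPL39 (910), RPL22 (114), RPL36A (92.6), RPL7L1 (80.8), RPL36AL (58.6), RPS27 (32.0), RPL26L1 (22.7), RPL22L1 (12.04), RPL7 (11.3), RPS27L (9.21) and RPL39L (7.42). Neighbours whose WT libraries overlapped were RPL36A with RPL7L1, RPS27 with RPL26L1, RPL22L1 with RPL7, and RPS27L with RPL39L. RPL22L1 moved from place 9 in WT to place 3 in ΔTUT4/7 at 139 ± 13.8 CPM per kilobase, and RPL22 from place 3 to place 6 at 75.9 ± 2.48. Other genes changed places too. RPL36A and RPL7L1 traded places 4 and 5, and RPS27L and RPL39L places 11 and 12. RPS27 went from place 7 to place 9, behind RPL26L1 at place 8. A single reference transcript was used for length, which for RPS27L has 6110 bases.

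The rest of the cytosolic ribosomal protein genes give the setting for these values. Of 75 such genes, 33 were higher and 14 lower in ΔTUT4/7 at the FDR of 0.05 and 28 did not pass, with a median log2 fold change of 0.15. That is 62.7% of the group past the FDR, against 57.7% of all tested genes. None differed by 2-fold or more in the main fit, while RPL22L1 and RPS27L did. Under alternatives, RPS26 reached a log2 fold change of 1.02 and RPS12 one of -1.03, so that cut depends on the processing. By subunit, 18 of 44 large-subunit genes were higher and 8 lower, and 15 of 31 small-subunit genes were higher and 6 lower. The split moved with the scaling: it was 23 higher and 21 lower with library size alone and 21 higher and 18 lower with upper-quartile scaling. The median of all genes shifted by -0.11 and -0.10 on the log2 scale under these, and limma on log2(CPM + 1) gave 26 higher and 20 lower.

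RPS26, a small-subunit protein at the mRNA exit, rose from 28.4 ± 0.990 to 56.4 ± 2.16 CPM (log2 fold change 0.99 ± 0.06, edgeR adjusted p = 9.26e-12). RPLP0, the stalk protein of the large subunit, rose by 0.82 ± 0.04 on the log2 scale and RPL10, which joins late in assembly, by 0.80 ± 0.04. Among genes that fell were RPS12 (331 ± 42.7 to 176 ± 11.1 CPM, log2 fold change -0.91 ± 0.10, edgeR adjusted p = 0.000184) and RPL34 at -0.47 ± 0.05. Each of these 5 genes kept its direction and its call under every alternative fitted. RPL3L, a paralog of RPL3 best known from muscle, rose from 0.982 ± 0.0854 to 2.22 ± 0.313 CPM (log2 fold change 1.17 ± 0.24, edgeR adjusted p = 0.000277), a low level with a mean of 38.5 counts. RPL10L has no entry in the table used here.

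**Figure D5:**
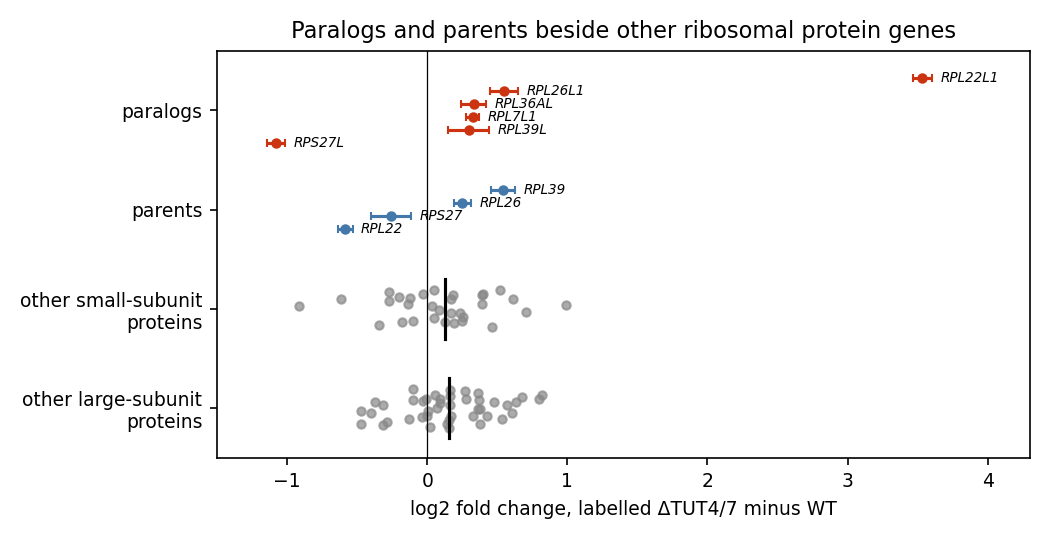
Log2 fold change, ΔTUT4/7 minus WT, of the paralogs (red) and listed parents (blue) with standard errors, above the other 31 small-subunit and 44 large-subunit protein genes (grey points, black bar at the median). RPL22L1 at 3.53 and RPS27L at -1.08 lie outside the range of the grey points, which runs from -0.91 to 0.99.

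The genes that modify RPL26 with UFM1 moved in both directions. Of 9 genes, 3 rose, 4 fell and 2 did not pass, where 57.7% of all tested genes passed in either direction, so the count alone does not set this group apart. CDK5RAP3 and UFL1, the adaptor and the ligase of the UFM1 E3 complex, fell by 1.07 ± 0.05 and 0.77 ± 0.06 on the log2 scale (edgeR adjusted p = 2.99e-13 and 2.67e-10), and UFM1 itself fell by 0.48 ± 0.05. ODR4, a partner of the UFM1 protease UFSP2, fell by 0.19 ± 0.06. DDRGK1, which anchors the ligase in the endoplasmic reticulum membrane, rose by 0.60 ± 0.08 and UFC1, the E2 enzyme, by 0.41 ± 0.06. The protease UFSP1 rose by 0.80 ± 0.28 at 0.982 to 1.68 CPM, and this call was lost with DESeq2 and without WT replicate 2, ΔTUT4/7 replicate 1 or ΔTUT4/7 replicate 2 (adjusted p from 0.0642 to 0.0895).

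Several ribosomal proteins, RPS27L among them, are known to bind the ubiquitin ligase MDM2. Of the genes listed for this link, 4 fell and 2 did not pass, where 29.0% of all tested genes fell. CDKN1A, which encodes the cell-cycle inhibitor p21, fell from 77.8 ± 4.98 to 7.63 ± 1.22 CPM (log2 fold change -3.34 ± 0.09, edgeR adjusted p = 9.45e-17). MDM2 fell by 0.83 ± 0.05 and MDM4 by 0.22 ± 0.04 on the log2 scale. CDKN1A, MDM2 and the member RPS27L were thus all lower in ΔTUT4/7. RPL11, which binds MDM2 as part of the 5S particle, passed narrowly at -0.40 ± 0.13 (edgeR adjusted p = 0.0490), and lost its call under 7 of 15 alternatives, among them those without WT replicate 2 and without ΔTUT4/7 replicate 1, 2 or 3 (adjusted p from 0.0503 to 0.117). RPL5, the partner of RPL11 in that particle, passed at 0.17 ± 0.05 (edgeR adjusted p = 0.00755). It did not pass with library size alone, upper-quartile scaling, limma on log2(CPM + 1), a minimum mean count of 50, without WT replicate 1 or without WT replicate 3 (adjusted p from 0.0523 to 0.438).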

How the data were processed

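Per the labels and methods, the authors mapped the read pairs with STAR 2.7.3a on hg38, then quantified Ensembl release 102 genes in Partek Flow 10.0.22 with its expectation-maximisation model. The deposited table holds the authors' estimated counts, of which 45.2% to 50.0% a library were not whole numbers (further than 1e-09 from one). The strand setting is not given in the sources used here. A second deposited table holds the authors' own comparison (p-value, FDR, ratio, fold change and least-squares means) and was not used.

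Counts were rounded, genes with a largest count above 12 were kept (the 6318 others held 0.0962% of counts), and groups were compared with edgeR 4.0.16 in R 4.3.3 (TMM factors from 0.951 to 1.05, robust quasi-likelihood test, Benjamini-Hochberg adjustment over 23952 genes). Adjusted p-values come from that test. CPM uses TMM-scaled totals, CPM per kilobase the length of 1 reference transcript. Pair ratios are log2 of counts plus 0.5. Errors are SD over 3 libraries or, for log2 values, standard errors. The libraries of a group differed by more than sampling noise (chi-square per degree of freedom from 2.63 to 14.1), so each was counted. In simulated counts for the same comparison (23952 genes, 200 changed), 96% of 2-fold and 76% of 1.5-fold changes were recovered. The changed genes had a mean count of at least 50, with as many up as down. In the real data 57.7% of genes passed, so these rates need not hold there. The stop column lies 1 base past the annotated end, which was taken off. Sequences came from GENCODE release 44 and the RefSeq promoter table.

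The members and gene lists were chosen with earlier results of these data known. Named genes were the members, their parents, TUT4 and TUT7, the 3 called ribosomal protein genes furthest up and the 3 furthest down (mean count at least 100, groups apart), every called gene of the UFM1 and MDM2 lists, RPL3L, RPL10L, and the 5 nearest patterns to RPL22L1. Some of these items are not reported here. Single pseudogenes, overlapping genes and genes of the lists that did not pass were named after their values were seen. Alternatives were other scalings (RLE, library size, upper quartile), DESeq2 1.42.0, limma 3.58.1 (voom and log2(CPM + 1)), other count filters, a replicate block, each library left out, neighbours within 5 Mb subtracted, and pseudogene counts added. The addition of copies that share at least 5% of windows was chosen after seeing the data. Neighbours were limited to genes with a mean count of at least 50.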

Additional observations from a re-analysis of the deposited data

How the results depend on the processing

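The log2 ratio of RPL7L1 to RPL7 changed sign, from -0.06 to 0.226 with all named pseudogenes added and to 0.222 with the window-sharing copies added, which put the counts of RPL7P9 and its like with RPL7. The other 5 pair ratios kept their direction under each alternative. So did the fold changes of the 10 members, though with library size alone RPL26 moved from 0.25 to 0.13, RPL39L from 0.30 to 0.18, RPL7L1 from 0.32 to 0.21 and RPL36AL from 0.33 to 0.22. The parent RPL36A moved from 0.09 to -0.02 there and to -0.01 without WT replicate 1. With a library left out, RPS27 was at -0.39 without WT replicate 1, -0.09 without WT replicate 3 and -0.17 without ΔTUT4/7 replicate 3, and RPL39L was at 0.19 without WT replicate 1. The pair ratio of RPL22L1 to RPL22 ranged from 4.03 to 4.17 with a library left out, and that of RPS27L to RPS27 from -0.96 to -0.69. The smaller ratios were less steady: RPL26L1 to RPL26 was 0.46 without WT replicate 3, RPL39L to RPL39 was -0.13 without ΔTUT4/7 replicate 2, RPL7L1 to RPL7 was -0.03 without WT replicate 1, and RPL36AL to RPL36A was 0.13 without WT replicate 2 or ΔTUT4/7 replicate 1. With a library left out the number of genes called ranged from 12506 to 13241 (13813 with all 6), of ribosomal protein genes from 42 to 54, of UFM1 genes from 6 to 8 and of genes of the MDM2 list from 4 to 7. Among the other alternatives the genes called ran from 11106 with a minimum mean count of 50 to 14248 with no count filter, and the ribosomal protein genes from 39 with upper-quartile scaling to 51 with DESeq2 and limma-voom. Replicate numbers did not pair the libraries: deviations of same-numbered libraries correlated at 0.00785, -0.0387 and -0.0250, and 2 of 6 libraries correlated best with their own number. With the replicate block 13678 genes were called, with 42, 7 and 5 in the 3 lists. With 3 libraries a group, differences of the size seen for RPL39L and RPS27 were within the spread between libraries.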
